A study of Phyllostachys violascens with 6 samples.

Results

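The unigenes matK, rps4 and rpl33 of Phyllostachys violascens cv. Viridisulcata, a bamboo whose internodes are green along the sulcus and yellow over the rest of the culm, are transcripts of plastid genes that serve the expression of the plastid genome itself. They are 3 of the 63776 unigenes (clusters of assembled transcripts) in the deposited table: Cluster-4806.17342, annotated as matK, Cluster-4806.11295, annotated as rps4, and Cluster-4806.44625, annotated as rpl33. They were chosen by their annotation and by their lower level in the yellow culm in these same libraries, so their difference between the tissues is given as a description, without a test. RNA was sequenced from the green sulcus (3 libraries) and from the yellow culm (3 libraries) of the longest internodes at the middle of wild type plants of this cultivar. Sulcus and culm are therefore described with the same species, cultivar and genotype, and differ in the strip of the internode that was taken. Whether the strips differ in genotype was not tested. No plant age is given in the sources used here. The libraries are described as biological replicates. For the qRT-PCR of the same study the replicate numbers are said to stand for different bamboos, and whether same-numbered libraries of the 2 tissues come from 1 bamboo is not spelled out for the sequencing.

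Plastids keep a small genome of their own, and its genes are transcribed, spliced and translated inside the organelle. matK encodes maturase K, the intron maturase of the land plant plastid genome, which lies within an intron of a tRNA gene and helps to splice group II introns from plastid transcripts, among them precursors of tRNAs and of ribosomal proteins. rps4 encodes protein S4 of the small (30S) subunit of the plastid ribosome, one of the proteins that bind early as that subunit is assembled, and rpl33 encodes protein L33 of the large (50S) subunit, which in tobacco is dispensable under standard growth and needed in the cold. The plastid ribosome makes the core proteins of both photosystems and the large subunit of Rubisco, whereas most of the proteins that help plastid expression, and the antenna proteins, are encoded in the nucleus and imported. A transcript count measures neither splicing nor translation.

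The summed counts per library lay between 16405396 and 22505338. The nuclear antenna unigenes encode the chlorophyll-binding proteins of green tissue. They were drawn from unigenes that the study selected on these libraries, so they are no independent check of the tissue labels. Their summed level was 5754, 4832 and 2723 CPM (counts per 1000000 counts of the library) in sulcus replicates 1, 2 and 3. In culm replicates 1, 2 and 3 it was 1017, 1357 and 2356 CPM. The sums did not overlap, but replicate 3 of the sulcus and replicate 3 of the culm lay close together. Of the 4 antenna unigenes, 4 had a lower fitted level in the culm and 3 lay lower there without overlap, as did 2.22% of all unigenes fitted. In bulk tissue, fewer green cells, fewer plastids per cell and less of a transcript per plastid cannot be told apart.

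The maturase transcript was the most evenly measured of the 3 unigenes. matK had 671, 859 and 746 counts in the sulcus and 132, 153 and 199 counts in the culm. Scaled to the library totals, these were 40.9, 44.2 and 40.3 CPM in the sulcus and 6.99, 7.68 and 8.84 CPM in the culm. The lowest sulcus library was 4.56 times the highest culm library, so the tissues were well apart. The mean was 41.8 ± 2.10 CPM in the sulcus and 7.84 ± 0.935 CPM in the culm (SD, n = 3), the culm standing at 18.8% of the sulcus. Within the same-numbered pairs the sulcus was 5.85, 5.76 and 4.56 times the culm. The fitted log2 fold change (culm minus sulcus, here and throughout) was -2.41 with a standard error of 0.16, and it stayed between -2.47 and -2.33 when any single library was left out.

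The values of ribosomal protein S4 rest on few reads. rps4 had 33, 34 and 44 counts in the sulcus and 8, 6 and 11 counts in the culm. These corresponded to 2.01, 1.75 and 2.38 CPM in the sulcus and 0.424, 0.301 and 0.489 CPM in the culm. Counting error alone (exact Poisson 95% intervals) spanned 0.111 to 0.655 CPM in culm replicate 2, the lowest library, and 1.21 to 2.45 CPM in sulcus replicate 2, the lowest of its tissue. The order of the libraries within a tissue is therefore not resolved at this depth, while every sulcus interval lay above every culm interval. The mean was 2.05 ± 0.315 CPM in the sulcus and 0.405 ± 0.0954 CPM in the culm (SD, n = 3), or 19.8% of the sulcus. The sulcus was 4.75, 5.81 and 4.86 times the culm within the pairs. The log2 fold change was -2.32 with a standard error of 0.32, between -2.45 and -2.19 with single libraries left out.

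The transcript of ribosomal protein L33 differed most between the tissues. rpl33 had 367, 412 and 513 counts in the sulcus and 38, 33 and 65 counts in the culm. Its level was 22.4, 21.2 and 27.7 CPM in the sulcus and 2.01, 1.66 and 2.89 CPM in the culm, and the lowest sulcus library was 7.34 times the highest culm library. The mean was 23.8 ± 3.48 CPM in the sulcus and 2.19 ± 0.634 CPM in the culm (SD, n = 3), or 9.20% of the sulcus. Within the pairs the sulcus was 11.1, 12.8 and 9.60 times the culm. The log2 fold change was -3.44 with a standard error of 0.25, between -3.66 and -3.32 with single libraries left out. The annotation of this unigene also lists protein domains of the photosystem I subunit PsaJ and of small subunits of the cytochrome b6f complex, whose genes neighbour rpl33 in grass plastid genomes, so its reads cannot be assigned to rpl33 alone. Whether the libraries kept the strand of the RNA is not stated either, and antisense transcripts cannot be told apart from sense ones. Since longer unigenes collect more reads and no length was used here, the levels of the 3 unigenes are not ranked against each other.

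**Figure D1:**
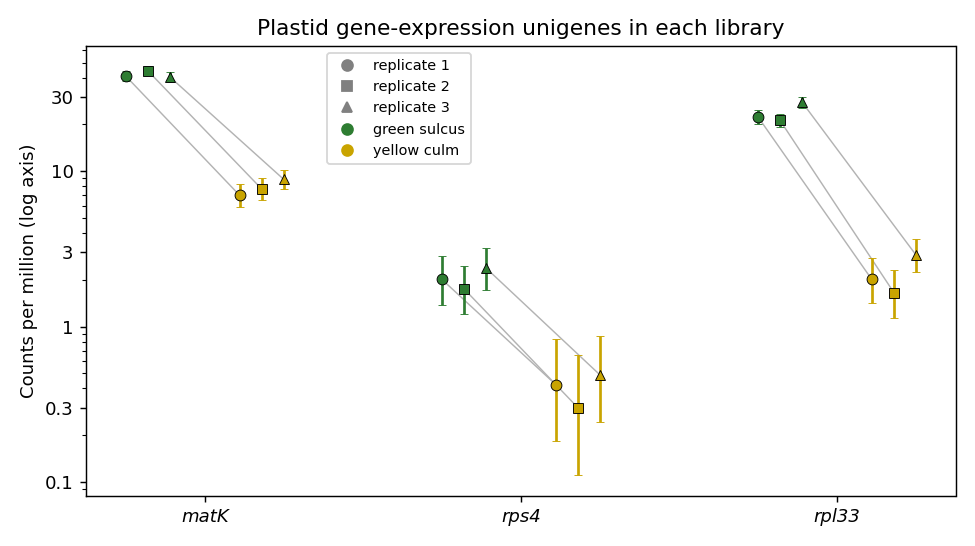
Level of matK, rps4 and rpl33 in each library, in CPM on a log axis, with exact Poisson 95% intervals (counting error only); grey lines join libraries of the same replicate number. The sulcus libraries lie above the culm libraries for each unigene. The lowest sulcus and highest culm libraries are 40.3 and 8.84 CPM for matK, 1.75 and 0.489 CPM for rps4, and 21.2 and 2.89 CPM for rpl33.

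The contrast that chose these unigenes placed them at the far end of the table. Their log2 fold changes were the 4th lowest (rpl33), the 13th lowest (matK) and the 15th lowest (rps4) of the 31936 unigenes with enough counts to be fitted. All 3 passed that filter, did not overlap between the tissues and had a log2 fold change below -1. With 6 to 11 counts per culm library against a minimum count of 10, rps4 passed only through its sulcus libraries, where it is high. Over the table, 2.22% of the unigenes were lower in the culm without overlap, 2.46% were higher without overlap, and 0.548% had a log2 fold change below -1. Nothing is read from these shares for the 3 unigenes, because the same contrast selected them. The quasi-likelihood test of edgeR was adjusted over all unigenes and held no term for the replicate number. It called 0 unigenes lower (0%) and 0 higher (0%) in the culm. At an unadjusted p under 0.05, 168 of the 31936 were lower and 272 higher. These counts are fewer than such a threshold would pass by chance, so they show no excess. DESeq2, run on the unfiltered table without the block, called 16 lower (0.0252%) and 7 higher (0.011%). Once the fit held a term for the replicate number (the block), 19 unigenes were called lower (0.0595%) and 22 higher (0.0689%) by edgeR.

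The spread between replicates is given as a description, since a small spread within tissues also helps a unigene to stand out between them. For matK the coefficient of variation of the CPM was 5.02% among sulcus libraries and 11.9% among culm libraries, where counting error alone would give 3.64% and 7.90%. For rps4 it was 15.4% in the sulcus and 23.6% in the culm, no more than the 16.5% and 34.8% that its counts would give. For rpl33 it was 14.6% and 29.0%, above the 4.83% and 14.9% from counting. The rps4 libraries of a tissue thus differed by no more than their reads allow, and the rpl33 libraries differed by more. On the log2 scale, the SD within tissues was 0.13 for matK, 0.29 for rps4 and 0.32 for rpl33, against a median of 0.40 over all unigenes fitted. A smaller spread than that of matK was found in 7.46% of unigenes, than that of rps4 in 34.3% and than that of rpl33 in 38.9%. The unigenes were not matched for count, and those with fewer counts carry more counting error. These shares are therefore not read as unusual steadiness.

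Replicate 3 was the highest culm library for each of the 3 unigenes. In the sulcus, rps4 and rpl33 were also highest in replicate 3, and matK in replicate 2. Of the sum of squares of log2 CPM, 99.2% lay between the tissues for matK, 96.0% for rps4 and 97.8% for rpl33, against a median of 5.78% over all unigenes fitted, and this share is part of what chose them. Of the remainder, the variation within tissues, the replicate number took 40.6% for matK, 93.3% for rps4 and 89.7% for rpl33, against a median of 82.8% over all unigenes fitted. The shares of rps4 and rpl33 were thus above that median and the share of matK below it. For rps4 the variation within tissues was no more than counting error gives, so its share is not read as joint deviation of same-numbered libraries.

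The proportion of rpl33 to matK was lower in every culm library than in any sulcus library, and the proportion of rps4 to matK overlapped between the tissues. Ratios within a library do not depend on its total. The rpl33 reads are those of the whole unigene and, as said above, cannot be assigned to rpl33 alone. Of the reads of rpl33 and matK together, rpl33 made up 35.4%, 32.4% and 40.8% in the sulcus and 22.4%, 17.7% and 24.6% in the culm. The tissues did not overlap in this share, with means of 36.2% ± 4.23 and 21.6% ± 3.51 (SD, n = 3). The closest libraries had exact Clopper-Pearson 95% intervals, for counting error only, of 29.9% to 35.1% (sulcus replicate 2) and 19.6% to 30.3% (culm replicate 3), which meet. Of the reads of rps4 and matK together, rps4 made up 4.69%, 3.81% and 5.57% in the sulcus and 5.71%, 3.77% and 5.24% in the culm. Here the tissues overlapped, with means of 4.69% ± 0.882 and 4.91% ± 1.01. No test was run on either share, since both are made from the values that chose the unigenes.

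**Figure D2:**
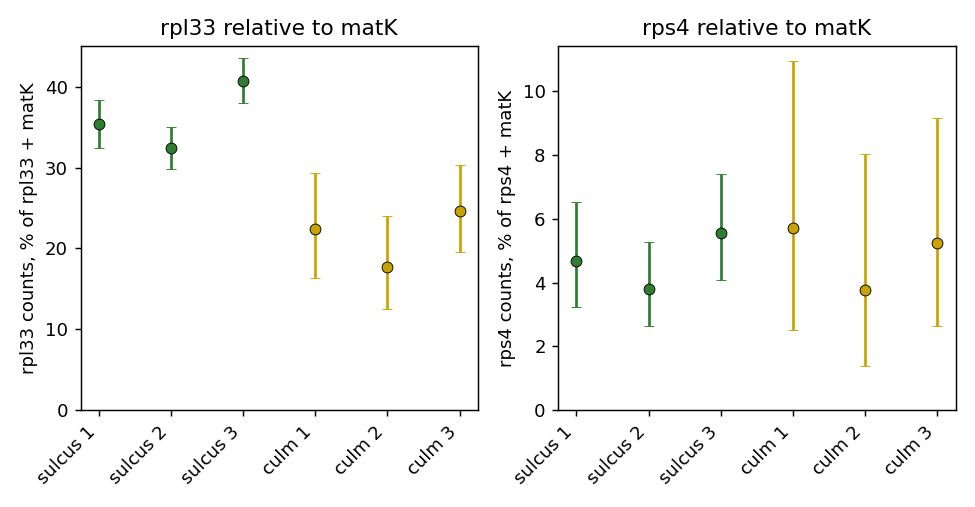
Reads of rpl33 as a percentage of rpl33 and matK together, and of rps4 as a percentage of rps4 and matK together, in each library, with exact Clopper-Pearson 95% intervals (counting error only). The rpl33 share lies between 32.4% and 40.8% in the sulcus and between 17.7% and 24.6% in the culm, while the rps4 share overlaps between the tissues.

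The products of the plastid ribosome include the photosynthesis proteins, and 13 unigenes annotated as plastid genes for photosystem cores, cytochrome f, ATP synthase, NADH dehydrogenase-like complex and Rubisco were set beside the 3 unigenes. This list, like the others below, was drawn from unigenes that the study selected on these libraries, so it is not independent evidence of a direction. Its summed level was 199, 191.6 and 295.4 CPM in the sulcus and 31.8, 33.2 and 51.9 CPM in the culm, with means of 229 ± 58.0 and 39.0 ± 11.2 CPM (SD, n = 3). Of the 13 unigenes, 13 were lower in the culm in every pair and did not overlap, where 2.22% of all unigenes fitted were lower without overlap. Of these, 12 were fitted, with a median log2 fold change of -2.02 where the median over all unigenes was 0.0059. None was called by edgeR without the block (0 of 12). With the block, 8 of 12 were called lower, where 0.0595% of all unigenes were. DESeq2 called 7 of 12 lower without the block, where it called 0.0252% of all unigenes lower. The photosystem and cytochrome unigenes lay between -3.67 and -1.0, and the ATP synthase, dehydrogenase and Rubisco unigenes between -2.83 and -1.83. matK and rps4, at -2.41 and -2.32, lay within both ranges, and rpl33, at -3.44, lay within the first and below the second. For ndhB, a dehydrogenase subunit, the counts were 6, 8 and 4 in the sulcus and 0, 0 and 0 in the culm, at least 6.77-fold higher in the sulcus against a floor of 3 counts over the culm libraries.

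Relative to these photosynthesis transcripts, the rpl33 unigene was scarcer in the culm and rps4 overlapped between the tissues. The annotation of the rpl33 unigene also lists photosystem and cytochrome domains, so its proportion is not that of a ribosomal protein transcript alone. For every 100 counts of the 13 unigenes, matK had 20.6, 23.1 and 13.6 counts in the sulcus and 22.0, 23.1 and 17.1 in the culm, which overlapped. rps4 had 1.01, 0.913 and 0.805 counts in the sulcus and 1.33, 0.906 and 0.943 in the culm with overlap, as for matK. rpl33 had 11.3, 11.1 and 9.38 counts in the sulcus and 6.34, 4.98 and 5.57 in the culm, so the tissues did not overlap. Without psbA and psbM, a choice made after the values were seen, matK had 32.6, 35.7 and 28.2 counts per 100 in the sulcus and 25.9, 27.6 and 23.5 in the culm, and the tissues no longer overlapped, while rpl33 had 17.9, 17.1 and 19.4 against 7.44, 5.95 and 7.67. The lower proportion of rpl33 in the culm was thus present with both sums, and that of matK depended on which unigenes were summed.

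In replicate 3 the tissues were closer in the nuclear antenna sum than in matK. As a percentage of the sulcus mean, the antenna sum was 129.7%, 108.9% and 61.4% in the sulcus and 22.9%, 30.6% and 53.1% in the culm. matK stood at 97.8%, 105.7% and 96.4% in the sulcus and 16.7%, 18.4% and 21.2% in the culm. Both had their highest culm value in replicate 3. The replicate 3 libraries of the tissues were thus well apart in matK and nearly level in the antenna sum.

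**Figure D3:**
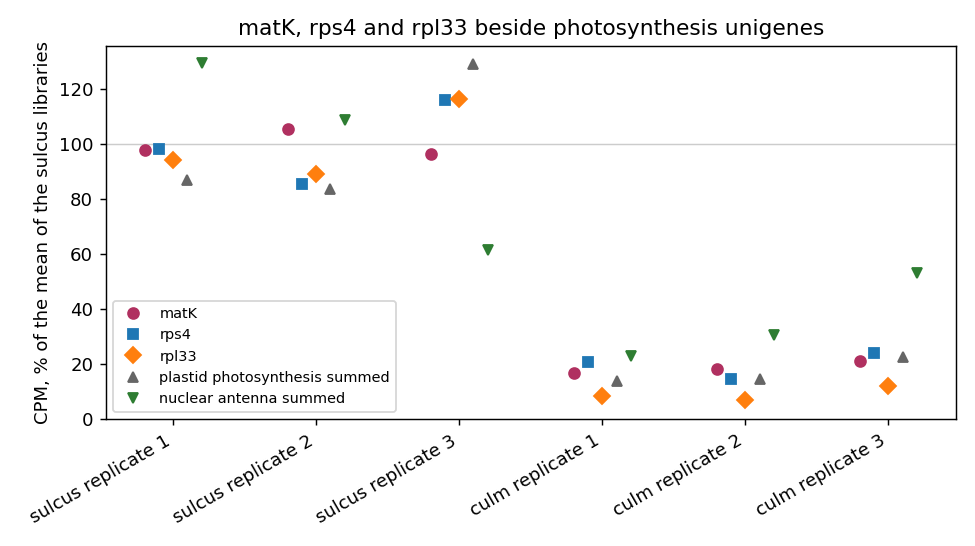
Level of matK, rps4, rpl33, the 13 plastid photosynthesis unigenes summed and the nuclear antenna unigenes summed in each library, as a percentage of the mean of the 3 sulcus libraries (CPM). In replicate 3 the antenna stands at 61.4% in the sulcus and 53.1% in the culm, while matK stands at 96.4% and 21.2%.

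Other unigenes for plastid gene expression had fitted values in both directions. Of 6 on the list, 5 were fitted, of which 3 had a negative and 2 a positive log2 fold change, with a median of -1.29. edgeR called 0 of 5 without the block. With it, 1 was called lower and 1 higher, where 0.0595% of all unigenes were called lower and 0.0689% higher. DESeq2 called 1 lower and 0 higher without the block, where it called 0.0252% of all unigenes lower and 0.011% higher. The plastid-encoded rps7, another protein of the small subunit, had 13, 13 and 15 counts in the sulcus and 5, 1 and 1 in the culm. It passed the count filter only through its sulcus libraries. Its log2 fold change was -2.64 with a standard error of 0.64, and it did not pass the test with the block (adjusted p = 0.21, edgeR). It is the list's only plastid-encoded unigene, and it was lower in the culm without overlap, as were 2.22% of all unigenes fitted.

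The nuclear unigenes of the list encode proteins that are imported into the plastid. CRS2-associated factor 1, which in maize takes part in splicing of plastid group II introns, had 13.4, 16.2 and 10.6 CPM in the sulcus and 1.32, 2.31 and 3.96 CPM in the culm. Its log2 fold change was -2.40 with a standard error of 0.41. It was called lower in the fit with the block (-2.43, adjusted p = 0.0329, edgeR) and was not called by edgeR without it. DESeq2 called it without the block as well (adjusted p = 8.95e-05). CSP41a, an RNA-binding protein of the chloroplast, had 57.0, 39.0 and 58.5 CPM in the sulcus and 11.2, 10.3 and 42.9 CPM in the culm, where replicate 3 overlapped with the sulcus. Its log2 fold change was -1.29 with a standard error of 0.56, and -2.23 without culm replicate 3.

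A chloroplast ribonucleoprotein, of a family that binds plastid transcripts, stood on the other side. It had 80, 79 and 49 counts in the sulcus and 226, 168 and 235 counts in the culm. Its log2 fold change was 1.41 with a standard error of 0.29. It was called higher in the fit with the block (1.43, adjusted p = 0.0432, edgeR) and was not called without it. A pentatricopeptide repeat protein like At3g53700, of a family of organelle RNA-binding proteins, had 52, 51 and 60 counts in the sulcus and 141, 96 and 131 in the culm, a log2 fold change of 0.999 with a standard error of 0.25 that did not pass the test with the block (adjusted p = 0.152, edgeR). The pentatricopeptide repeat unigene like At5g27270 had 2, 3 and 6 counts in the sulcus and 0, 1 and 0 in the culm and was too scarce to be fitted. A unigene for RPS15 of the cytosolic ribosome, which is not a plastid protein, had a log2 fold change of 1.93 with a standard error of 0.43 (adjusted p = 0.182 with the block, edgeR).

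Not every unigene matching a plastid genome was lower in the culm. Of 4 further unigenes with such a match, 3 were fitted, 2 with a negative and 1 with a positive log2 fold change. The positive value belonged to a unigene annotated as accD-like, after the plastid gene for a subunit of acetyl-CoA carboxylase. Whether its reads come from a working gene of the plastid genome was not tested. It had 2, 7 and 8 counts in the sulcus and 17, 14 and 29 counts in the culm, without overlap and higher in the culm in 3 of 3 pairs. Its log2 fold change was 1.62 with a standard error of 0.49, and it did not pass the test with the block (adjusted p = 0.369, edgeR). With the block, 1 of the 3 was called lower (Cluster-4806.36198, -3.26, adjusted p = 0.0432, edgeR), where 0.0595% of all unigenes were.

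**Figure D4:**
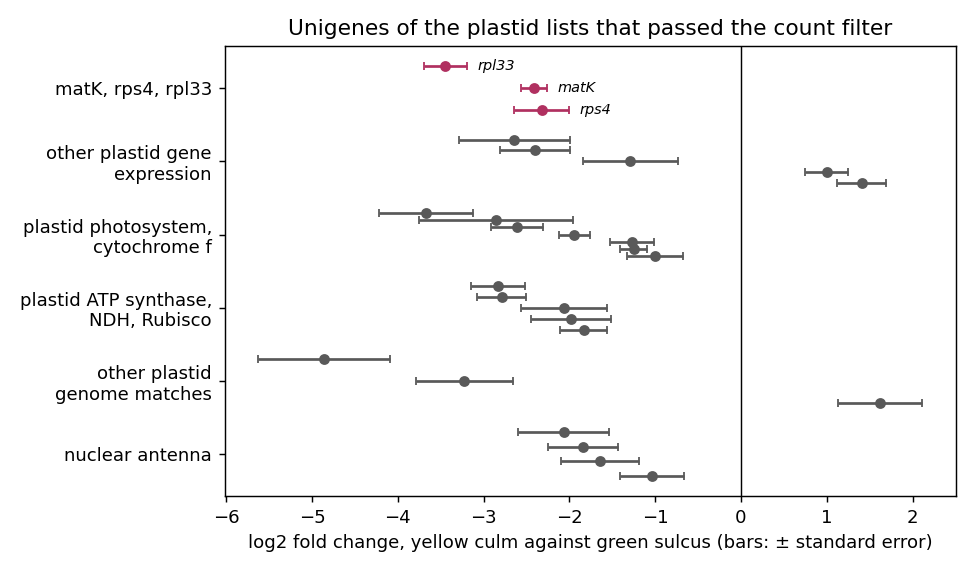
Fitted log2 fold change (culm minus sulcus) of each unigene by list, with bars of 1 standard error; values below 0 are lower in the culm. matK, rps4 and rpl33 lie between -3.44 and -2.32, and the other plastid gene expression unigenes run from -2.64 (rps7) to 1.41 (chloroplast ribonucleoprotein).

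A search over the table for profiles most like the mean profile of matK, rps4 and rpl33 (Pearson's r over the 6 libraries on log2 CPM with 0.5 added, given as a description) gave 5 unigenes, of which 3 are annotated as plastid photosynthesis genes. Among them were psbB, which encodes a core antenna protein of photosystem II (r = 0.998), and atpA, which encodes the alpha subunit of the plastid ATP synthase (r = 0.99). psbB had 17.1, 16.3 and 17.9 CPM in the sulcus and 6.71, 6.97 and 7.82 CPM in the culm, a log2 fold change of -1.25, so likeness of profile did not mean likeness of size, and its annotation also lists a cytochrome b6 domain. atpA had a log2 fold change of -2.79. The list also held Cluster-4806.35292 (r = 0.986) and Cluster-4806.2320 (r = 0.985), with log2 fold changes of -0.16 and -0.81, which no annotation used here names. Of the 31933 other unigenes fitted, 118 had an r above 0.9, CRS2-associated factor 1 stood at 0.947 and rps7 at 0.942. With 6 libraries in 2 tissues, any unigene that is steady within tissues and differs between them gives a high r.

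The libraries also held reads matching bacteria, and where these came from was not tested. The 5 unigenes matching Janthinobacterium summed to 43.0, 65.0 and 190.3 CPM in the sulcus and 29.97, 10.1 and 52.4 CPM in the culm, so the tissues overlapped, while the sum was lower in the culm in 3 of 3 pairs. Of the 3 unigenes of this list that were fitted, 3 had a negative log2 fold change. edgeR called 0 without the block and 1 lower with it (Cluster-4806.18016, -1.62, adjusted p = 0.00702), where 0.0595% of all unigenes were called lower. Their part in the result was not tested. Whether the libraries were made from polyadenylated RNA or after removal of ribosomal RNA is not stated in the sources used here. Plastid transcripts are mostly without long poly(A) tails, so their CPM values describe what these libraries captured, and the share captured was not measured.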

How the data were processed

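Total RNA was extracted with RNAiso Plus and sequenced as 150 bp paired-end reads. The authors assembled the reads de novo with Trinity, clustered contigs with Corset, and deposited estimated counts per unigene, neither normalized nor filtered. No source used here names the tool that counted the reads. The submitters' processing notes name DESeq. Between 10.7% and 12.5% of the deposited values were not whole. Fold changes and p-values in the study's supplementary tables were not used.

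The estimated counts were rounded and fitted in R 4.3.3 with edgeR 4.0.16 (quasi-likelihood test, filterByExpr with a minimum count of 10, TMM factors), limma 3.58.1 and DESeq2 1.42.0. Calls needed a Benjamini-Hochberg adjusted p below 0.05 together with a log2 fold change past 1 in size. Standard errors are the size of the log2 fold change divided by the square root of F. CPM is the count divided by the column sum. The libraries are described as biological replicates, and p-values weigh the tissue difference against the variation between these samples. With the block, that variation is what remains after the replicate number is fitted.

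Same-numbered libraries deviated together from their tissue means (r = 0.713, 0.620 and 0.798, other pairings -0.632 to -0.0750), so the numbers were taken to pair the libraries. Deviations from a tissue mean cancel out within the tissue. Positive same-numbered pairings therefore force the others to be negative on balance, and the negative values add no support. The pairing, which the fits with the block use, rests on the same-numbered values of these same data. For the study's qRT-PCR the numbers are said to stand for different bamboos, which is not spelled out for the sequencing. The text names the 3 unigenes, unigenes of the lists, and the 5 with the most similar profile; some are not reported singly. Unigenes and lists were chosen with earlier results of these data known. Names follow the study's annotation.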

Additional observations from a re-analysis of the deposited data

How the results depend on the processing

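The log2 fold changes of matK, rps4 and rpl33 kept their direction under all 13 alternatives run (replicate block, other scaling, other filters, DESeq2 and each library left out). The pairing changed the count of calls: with the replicate block, edgeR called 22 unigenes higher and 19 lower, against 0 and 0 without it. Without the filter it called 2 lower, with DESeq2 7 higher and 16 lower, with DESeq2 and the replicate block 65 higher and 30 lower, and with any single library left out 0. The median of the other plastid gene expression unigenes, -1.29, became -0.16 with a minimum count of 30, which leaves out rps7, and ranged from -2.21 (without culm replicate 3) to -0.99 with single libraries left out. That of the plastid photosynthesis unigenes, -2.02, ranged from -2.47 (without culm replicate 3) to -1.81. The mean log2 difference of rps4 within pairs, -2.33, was -1.49 when 0.5 instead of 0.01 was added to each CPM, since its culm CPM lies below 0.5. The depth limits rps4, with 6 to 11 counts per culm library. The proportions changed when set against the photosynthesis sum without psbA and psbM, an alternative chosen after seeing the data. The mean log2 difference (culm minus sulcus) turned from 0.14 to -0.32 for matK and from 0.21 to -0.26 for rps4. For rpl33 it went from -0.91 to -1.37. The 3 proportions share the same sum, so leaving out unigenes moves them alike. Mean psbM was 91.95 CPM in the sulcus and 7.31 CPM in the culm, and mean psbA 5.87 and 0.798 CPM. Why these unigenes were lower in the culm was not tested.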
